A study of Homo sapiens with 6 samples.

Results

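The Wnt/β-catenin factors and feedback genes examined here were LEF1, TCF7, TCF7L2, DKK1, DKK4, NOTUM, AXIN2, NKD1, RNF43 and ZNRF3, 10 genes picked by symbol from the 56303 genes of the count table. SW480 is a human colorectal adenocarcinoma line. Cells that carried a nonsilencing short hairpin RNA (shCtrl, genotype labelled WT) were compared with cells that carried a hairpin against MORC2 (shMORC2, genotype labelled MORC2 knockdown), with 3 libraries in each group. Both hairpins were delivered by lentivirus and the lines were kept as stable clonal lines under puromycin, so any other difference between both lines cannot be told apart from the effect of the hairpin. The 10 genes were put together with results of this same comparison known. Their fold changes are therefore given as a description with no p-value printed, and where a gene of the 10 is said to pass the test or to be called, this only describes the fit across all genes.

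In the canonical Wnt pathway, secreted Wnt proteins bind Frizzled receptors and the co-receptors LRP5 and LRP6, which keeps β-catenin from being degraded. β-catenin then enters the nucleus and binds the TCF/LEF proteins, which sit on DNA and switch target genes. Several of those targets encode inhibitors of the pathway, so that the signal feeds back on itself. SW480 cells carry a truncated APC, a scaffold of the complex that degrades β-catenin, and the pathway is active in them without added Wnt.

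Each library held 42092664 to 43434425 counts. MORC2 itself was at 46.1, 46.4 and 48.8 CPM (counts scaled to the size of the library) in the shCtrl libraries and at 35.0, 29.3 and 27.1 CPM in the shMORC2 libraries (log2 fold change -0.63, SE 0.10, edgeR adjusted p 0.000216). MORC2-AS1, an antisense gene, shares 1616 exonic bases with it. Summed epithelial markers (9 keratin, adhesion and intestinal genes) stood at 20134 to 26175 CPM in shCtrl and 19172 to 26059 CPM in shMORC2, and all 9 were detected in every library. KRT8 (mean 15368 CPM in shCtrl and 15059 CPM in shMORC2) and KRT18 (5180 and 5375 CPM) held most of this sum. It therefore says little about the other markers.

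LEF1 and DKK4 were close to silent in shCtrl and clearly present in shMORC2. Of the other 8 genes, TCF7, TCF7L2 and AXIN2 were 1.19- to 1.26-fold higher and the ligase genes RNF43 and ZNRF3 were lower, at 70.03% and 83.5% of the control level. NKD1, NOTUM and DKK1 did not pass the test. In edgeR's quasi-likelihood test with Benjamini-Hochberg adjustment over 21005 genes, 7 of the 10 genes had an adjusted p under 0.05, 5 higher and 2 lower in shMORC2. Over all genes tested, 39.5% passed, 19.9% higher and 19.6% lower. With the replicate number as a block, 8 of the 10 passed, with DKK1 added, where 49.0% of all genes did. In CPM, 6 of the 10 genes had all shMORC2 libraries above all shCtrl libraries, 2 had them all below, and DKK1 and NOTUM overlapped. Of all genes tested, 50.2% did not overlap, 25.1% above and 25.1% below. As the genes were chosen on this contrast, nothing is read from these counts.

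**Figure D1:**
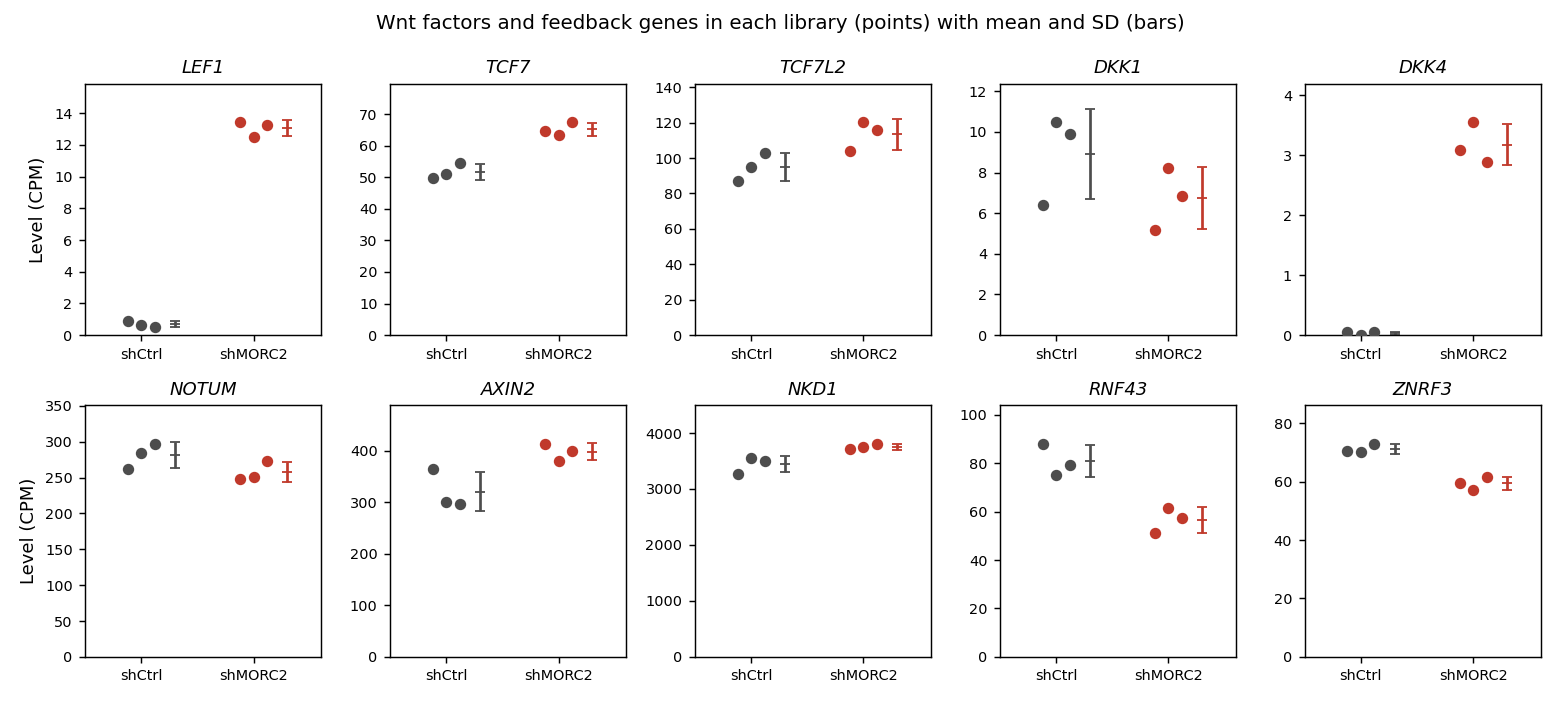
Level in CPM (y axis, starting at 0, a separate scale for each gene) of the 10 genes in the 3 shCtrl (grey) and 3 shMORC2 (red) libraries, with points for libraries and bars for the mean and SD. LEF1 and DKK4 go from near 0 to about 13.1 and 3.17 CPM, while the other 8 genes differ by far less.

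The sequences shown first are those of TCF7L2, the only one of the 10 genes with an event in the deposited splicing table, whose 1449 events lie in 1181 genes. Both listed events skip the same exon of 51 bases, which keeps the reading frame, and differ in the exon joined downstream. The skipped exon is exon 13 of the 15 of the canonical transcript. It is present in 11 of 31 annotated transcripts and wholly coding in 10 of them. The 2 downstream exons each have 73 bases and hold the same base at 47 aligned positions, or 64.4%. The 3′ exons of TCF7L2 are known to be alternatively spliced and to change the C-terminal tail of the protein. On chromosome 10, plus strand, GRCh38, the exons read as follows, in lower case throughout.

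TCF7L2 exon upstream, chr10:113158021-113158069: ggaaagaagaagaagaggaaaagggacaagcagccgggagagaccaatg

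TCF7L2 skipped exon, chr10:113158667-113158717: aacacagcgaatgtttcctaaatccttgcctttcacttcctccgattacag

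TCF7L2 downstream exon of the one event, chr10:113159920-113159992: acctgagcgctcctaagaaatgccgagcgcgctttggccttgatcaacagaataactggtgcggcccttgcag

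TCF7L2 downstream exon of the other event, chr10:113160619-113160691: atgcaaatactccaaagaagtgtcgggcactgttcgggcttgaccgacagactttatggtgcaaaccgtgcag

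The splicing table names its groups only as group 1 and group 2, so no shMORC2 direction was assigned to these events. The counts per gene do not separate the TCF7L2 isoforms.

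RefSeq promoters (GRCh38.p14, 250 bases before to 50 after a start) were matched for LEF1, TCF7, TCF7L2, DKK1 and RNF43, in 9 windows. DKK4, NOTUM, AXIN2, NKD1 and ZNRF3 had no window and were not searched. The LEF1 window and both TCF7 windows belong to starts inside the gene, so the promoters at the outermost starts of LEF1 and TCF7 were not searched. Both strands were searched for CTTTGAT and CTTTGAA, which are forms of the sequence that TCF/LEF proteins bind. Of these 9 windows, that of DKK1 held a match, CTTTGAA on the strand of the gene at bases -95 to -89 from the start. Among all 35116 promoters of this length, 6.86% held a match. Of 112 windows of the other Wnt pathway genes listed below, 3, or 2.68%, did. For DKK1 the 250 bases before the start, chr10:52314031-52314280, plus strand, are shown with that match in capitals.

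DKK1: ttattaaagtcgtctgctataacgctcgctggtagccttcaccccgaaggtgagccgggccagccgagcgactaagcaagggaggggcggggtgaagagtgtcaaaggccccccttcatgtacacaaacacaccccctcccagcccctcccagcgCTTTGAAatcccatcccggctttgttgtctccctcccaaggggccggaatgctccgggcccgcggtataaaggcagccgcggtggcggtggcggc

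The nuclear factors were described first. LEF1 (chromosome 4, 108047545 to 108168956, minus strand, GRCh38) encodes a DNA-binding partner of β-catenin that is best known from lymphocytes and from many colorectal tumours. It had 40, 26 and 22 counts in shCtrl and 597, 521 and 564 counts in shMORC2. In CPM these were 0.912, 0.614 and 0.534 against 13.4, 12.5 and 13.2. Every shMORC2 library stood far above every shCtrl library. The log2 fold change was 4.24 (SE 0.17), or 18.9-fold, which ranked 16 from the highest of the 21005 genes. With one library left out at a time it lay between 4.09 and 4.497. In bulk RNA a rise in every cell cannot be told apart from a larger share of cells with the transcript.

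LEF1-AS1 is an antisense gene whose annotated start lies 1431 bases from that of LEF1. It went from 4, 10 and 5 counts to 166, 128 and 130 counts (log2 fold change 4.44, SE 0.30, edgeR adjusted p 4.47e-07). Both genes share 279 exonic bases, or 5.20% of the exonic length of LEF1. The strand setting of the counting is not given in the sources used here.

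TCF7 (chromosome 5, 134114711 to 134151865, plus strand) encodes TCF1, a second β-catenin partner that is itself a Wnt target. Its level was 49.7, 51.0 and 54.6 CPM in shCtrl and 64.6, 63.4 and 67.5 CPM in shMORC2. The groups did not overlap, with a log2 fold change of 0.33 (SE 0.07). It shares 210 exonic bases with SKP1 on the other strand, which was also higher (log2 fold change 0.35, SE 0.08, edgeR adjusted p 0.00268).

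TCF7L2 (chromosome 10, 112950250 to 113167678, plus strand) encodes TCF4, the TCF factor that maintains intestinal crypts. Its level was 87.0, 94.96 and 102.8 CPM in shCtrl and 103.9, 120.4 and 115.9 CPM in shMORC2. The highest shCtrl and the lowest shMORC2 library lay close together. The log2 fold change was 0.26 (SE 0.09). It no longer passed the test without shCtrl replicate 1 or 2 or without shMORC2 replicate 2 or 3, where it stood at 0.20 to 0.25, nor with limma on log2(RPKM + 1) without a filter (0.23).

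Levels were compared between the TCF/LEF genes in RPKM, which also corrects for exon length, and TCF7L1, the remaining family member, was added from the list of other pathway genes. The summed RPKM of the 4 genes was 19.8, 20.8 and 21.5 in shCtrl and 27.4, 29.1 and 28.8 in shMORC2. TCF7L2 made up most of it in both groups, at 68.0% ± 1.26 in shCtrl and 58.97% ± 1.35 in shMORC2 (SD, n = 3 each). The share of LEF1 was 0.628% ± 0.223 in shCtrl and 8.57% ± 0.755 in shMORC2. TCF7L1 went from 6.45% ± 0.723 to 9.72% ± 0.773. LEF1 thus remained the smallest of the 4 shares in shMORC2 replicates 2 and 3 and stood just above TCF7L1 in replicate 1.

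**Figure D2:**
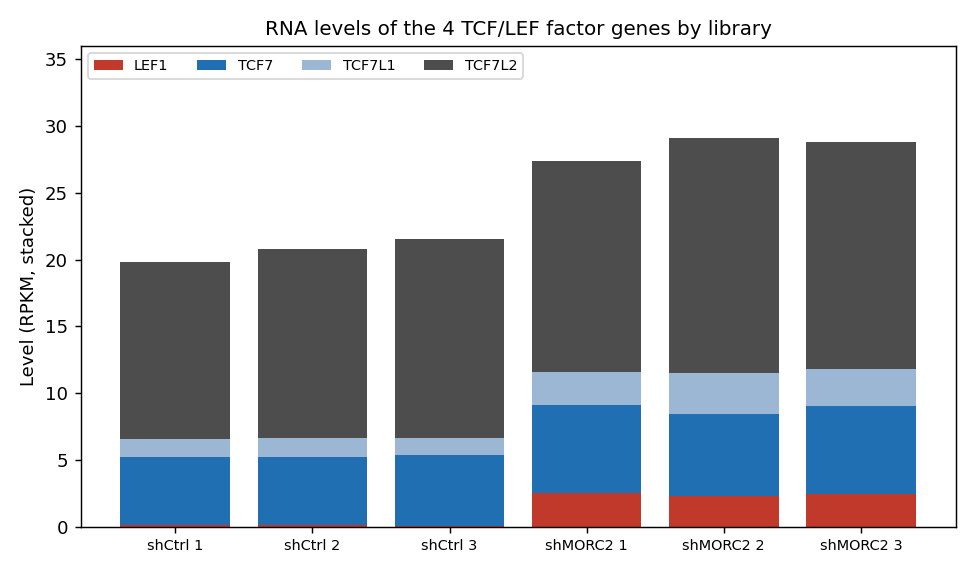
Stacked RPKM (y axis, from 0) of LEF1, TCF7, TCF7L1 and TCF7L2 in each of the 6 libraries (x axis). The stacks reach 19.8 to 21.5 RPKM in shCtrl and 27.4 to 29.1 RPKM in shMORC2, and the LEF1 segment is a thin line in shCtrl and a clear band in shMORC2.

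LEF1 and TCF7 are also genes of lymphocytes, so a list of 12 lymphocyte markers was read beside them. Its summed level was 59.96 to 65.3 CPM in shCtrl and 75.7 to 101.6 CPM in shMORC2. PRF1, the gene of perforin, held most of it, with 2091 to 2376 counts in shCtrl and 2782 to 3557 in shMORC2. CD2 and MS4A1 had 0 counts in every library, and PTPRC, CD3D, CD3E and CD3G had at most 6. CD4, CD8A and PRF1 passed the test as higher, out of 4 markers tested, where 39.5% of all genes tested passed. NKG7, the remaining marker tested, was lower and not called (log2 fold change -0.96, SE 0.51, edgeR adjusted p 0.151). The 6 fibroblast markers summed to 19.99 to 20.9 CPM in shCtrl and 22.7 to 24.9 CPM in shMORC2, with none called. COL3A1 and COL1A2, too low to be tested, went the other way. COL3A1 had 4, 9 and 8 counts in shCtrl and 0, 0 and 0 in shMORC2. COL1A2 had 10, 8 and 4 counts in shCtrl and 0, 0 and 4 in shMORC2. The 4 endothelial markers summed to 15.7 to 19.6 CPM and 20.6 to 22.2 CPM, with VWF called higher and CDH5 and KDR at most at 2 counts. No marker of these 2 lists was at 0 throughout. The part of other cell types in the LEF1 and TCF7 values was not tested beyond these levels.

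Of the secreted inhibitors, DKK4 (chromosome 8, 42374068 to 42377232, minus strand) belongs to the Dickkopf family, which binds LRP5 and LRP6 and keeps them from Wnt. It had 2, 0 and 2 counts in shCtrl and 137, 148 and 123 counts in shMORC2. All 3 shCtrl libraries lay under the floor of 3 counts, which stands for 0.0676 to 0.0729 CPM per library, and all 3 shMORC2 libraries were between 2.89 and 3.55 CPM. From the summed counts, 4 against 408, the ratio was 101 with a 95% exact interval of 39.1 to 372. That interval takes every count as independent and leaves out the spread between libraries. Whether both mates of a read pair were counted is not given in the sources used here. If they were, the interval is too narrow even for counting error. The fitted log2 fold change was 6.53 (SE 0.40) and depends on how values near 0 are handled. One other gene had a higher fitted value. No annotated gene shares exonic bases with DKK4.

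DKK1 (chromosome 10, 52314296 to 52318042, plus strand), of the same family, had 6.38, 10.5 and 9.89 CPM in shCtrl and 5.16, 8.21 and 6.85 CPM in shMORC2. The ranges overlapped. The log2 fold change of -0.40 (SE 0.19) did not pass the test, and it did with the replicate number as a block (-0.40, SE 0.11). It also passed without shCtrl replicate 1 (-0.60) and without a filter on low counts (-0.41). DKK1 was at 2.97 to 4.78 RPKM and DKK4 at 0 to 0.0531 RPKM in shCtrl, whereas in shMORC2 DKK1 was at 2.39 to 3.65 RPKM and DKK4 at 3.19 to 3.90 RPKM, ranges that overlap.

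NOTUM (chromosome 17, 81952507 to 81961840, minus strand) encodes a secreted enzyme that strips the lipid from Wnt proteins. Its level was 261.6, 284.3 and 297.2 CPM in shCtrl and 248.1, 250.6 and 273.8 CPM in shMORC2. The groups overlapped, and the log2 fold change of -0.13 (SE 0.08) was not called under any of 15 alternatives. NOTUM accounted for 95.8% ± 0.788 of the summed RPKM of the 3 secreted inhibitors in shCtrl and 92.8% ± 1.11 in shMORC2 (SD, n = 3 each). DKK4 went from 0.0366% ± 0.0317 to 3.88% ± 0.528 of that sum. The sum itself was 97.4 ± 4.75 RPKM in shCtrl and 91.6 ± 3.75 RPKM in shMORC2, with overlapping libraries.

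The inhibitors inside the cell were next. AXIN2 (chromosome 17, 65528563 to 65561647, minus strand) encodes a scaffold of the β-catenin destruction complex and is widely read as a reporter of Wnt signalling. It was at 364.5, 301.1 and 295.9 CPM in shCtrl and 413.3, 380.1 and 399.0 CPM in shMORC2. The groups did not overlap, although shCtrl replicate 1 stood nearest to shMORC2. The log2 fold change was 0.31 (SE 0.09). It was 0.41 without shCtrl replicate 1, and it lost the call without shCtrl replicate 2 (0.27) or 3 (0.26) and with limma on log2(RPKM + 1) without a filter (0.30). CTD-2535L24.2, on the same strand, shares 1316 of its 1616 exonic bases with AXIN2, or 25.2% of the exonic length of AXIN2. Most exonic bases of CTD-2535L24.2 are thus also AXIN2 exon, so its value cannot be read as that of a separate gene. It was not called (log2 fold change 0.22, SE 0.09, edgeR adjusted p 0.0690), and how reads in that stretch were counted is not given in the sources used here.

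NKD1 (chromosome 16, 50548330 to 50649249, plus strand) encodes Naked cuticle 1, which binds Dishevelled and dampens the signal. It was the most abundant of the 10 genes by far, with 143650, 150282 and 144269 counts in shCtrl and 164520, 156116 and 162306 in shMORC2. It took 0.345% of all counts in shCtrl and ranked 20 of all genes by mean CPM. Its levels were 3275, 3551 and 3505 CPM against 3706, 3747 and 3808 CPM. The groups did not overlap, and the log2 fold change of 0.12 (SE 0.08) was not called under any of 15 alternatives. RP11-401P9.6 on the other strand shares 67 exonic bases with NKD1 and was higher (log2 fold change 0.24, SE 0.07, edgeR adjusted p 0.0214).

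The membrane ligases were the 2 members called lower without the replicate block, which added DKK1. RNF43 (chromosome 17, 58352500 to 58417595, minus strand) and ZNRF3 (chromosome 22, 28883592 to 29057487, plus strand) encode related ubiquitin ligases that remove Frizzled receptors from the cell surface. R-spondins, acting through LGR receptors, block them. RNF43 was at 88.01, 74.9 and 79.4 CPM in shCtrl and 51.0, 61.6 and 57.2 CPM in shMORC2, with no overlap and a log2 fold change of -0.51 (SE 0.09). TSPOAP1-AS1 on the other strand shares 1521 exonic bases with RNF43, or 20.3%, and was not called (log2 fold change 0.011, SE 0.08, edgeR adjusted p 0.932). SUPT4H1 on the same strand shares 143 bases and was higher (log2 fold change 0.39, SE 0.09, edgeR adjusted p 0.00329).

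ZNRF3 was at 70.5, 70.1 and 73.02 CPM in shCtrl and 59.6, 57.2 and 61.6 CPM in shMORC2, with no overlap. Its log2 fold change was -0.26 (SE 0.07) and lost the call without shCtrl replicate 3 (-0.24) or shMORC2 replicate 2 (-0.23). No annotated gene shares exonic bases with it. The summed RPKM of both ligases was 21.1 ± 1.21 in shCtrl and 16.02 ± 0.306 in shMORC2 (SD, n = 3 each), without overlap between libraries.

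**Figure D3:**
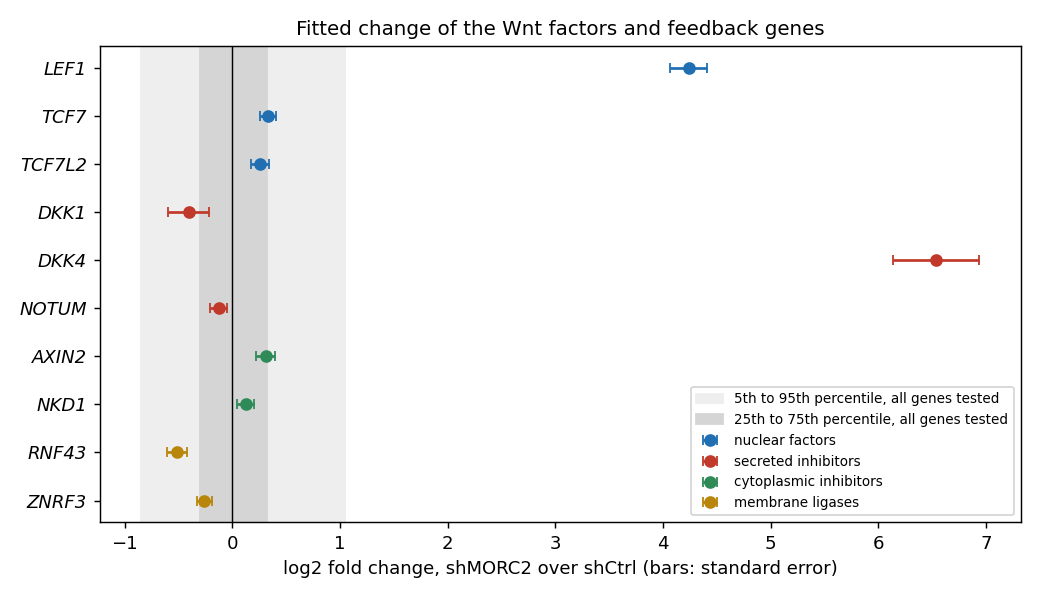
Fitted log2 fold change of shMORC2 over shCtrl (x axis) for the 10 genes (y axis), coloured by role, with the standard error as bars; grey bands span the 5th to 95th (-0.84 to 1.05) and 25th to 75th (-0.30 to 0.32) percentiles of all genes tested. LEF1 at 4.24 and DKK4 at 6.53 lie far outside both bands, and the other 8 genes lie within the wider one.

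Ordered by RPKM in shCtrl, the 10 genes ran from NKD1 (198 ± 6.11) over NOTUM (93.3 ± 3.88), AXIN2 (61.6 ± 8.71), TCF7L2 (14.1 ± 0.841), RNF43 (10.8 ± 1.07), ZNRF3 (10.2 ± 0.141), TCF7 (5.16 ± 0.134) and DKK1 (4.04 ± 0.952) to LEF1 (0.129 ± 0.0403) and DKK4 (0.0352 ± 0.0305), all as mean and SD of 3 libraries. RNF43 and ZNRF3 overlapped, and no other neighbours did. In shMORC2 the order was NKD1 (215 ± 3.35), NOTUM (85.04 ± 4.19), AXIN2 (75.9 ± 4.74), TCF7L2 (16.8 ± 0.911), ZNRF3 (8.51 ± 0.397), RNF43 (7.51 ± 0.554), TCF7 (6.46 ± 0.239), DKK4 (3.54 ± 0.354), DKK1 (3.04 ± 0.631) and LEF1 (2.43 ± 0.138). There DKK4 overlapped DKK1, and DKK1 overlapped LEF1. LEF1 and DKK4 thus stayed among the 3 least abundant of the 10.

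The genes whose pattern over the 6 libraries was most like that of LEF1 were PDIA4, PITPNA and RP5-912I13.2, with Pearson correlations of log2 CPM of 0.999, 0.999 and 0.998. They were the 3 highest of 14334 genes whose mean count reached 100. As 127 of these genes had a correlation above 0.99, and the 6 points fall into 2 groups, this describes the split between groups. Their log2 fold changes were 0.87, 0.74 and 1.07.

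To place these genes, 7 lists of other Wnt pathway genes were read in the same fit. Of 113 listed genes in the table, 94 passed the filter on low counts and 44 of those, or 46.8%, had an adjusted p under 0.05, with 23 higher and 21 lower in shMORC2. Over all genes tested the share was 39.5%, with 19.9% higher and 19.6% lower, and each list below is to be read against it. The median log2 fold change was -0.04 in these genes and -0.0056 over all genes tested. Besides TCF7L2, listed splicing events fell in AXIN1, LGR6 and PPARD. Most genes named below were taken because they were called with the largest changes of their list. Their calls and adjusted p-values therefore only describe the fit.

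**Figure D4:**
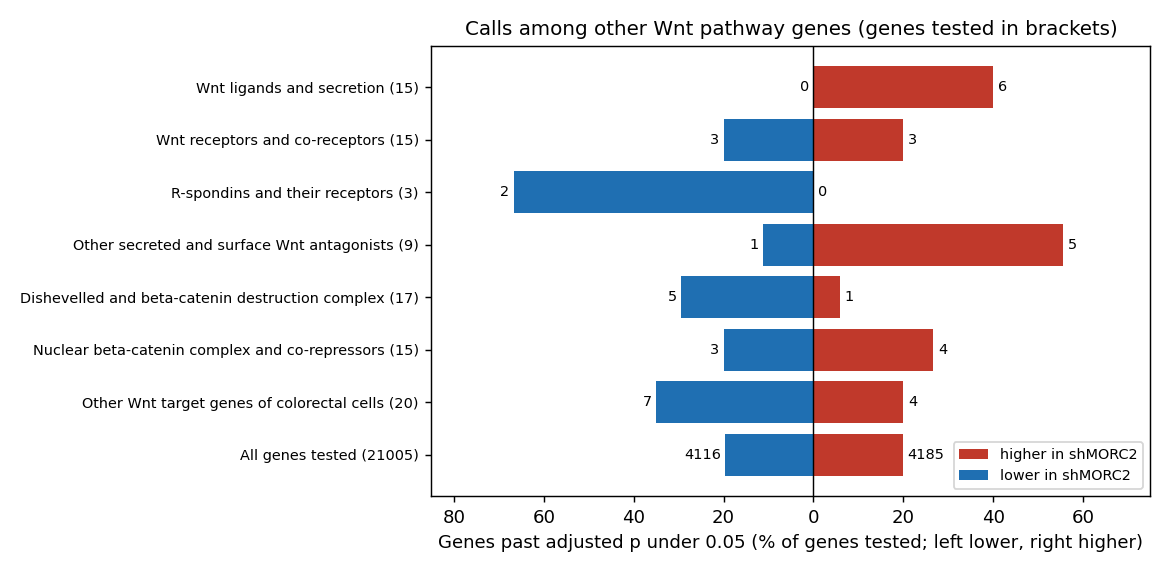
Share of tested genes (x axis, %) called higher (red, to the right) or lower (blue, to the left) in shMORC2 for 7 Wnt lists and for all genes tested, with the number of genes tested in brackets and the number called at the end of each bar. Ligand and secretion genes were called only as higher (6 and 0), and destruction complex genes mostly as lower (5 and 1). The shares called, 40% and 35.3%, are near the 39.5% of all genes tested (19.9% higher and 19.6% lower).

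Among ligands and the genes that secrete them, 6 of 15 tested genes, or 40%, were called, all as higher. Over all genes tested, 19.9% were called higher and 39.5% in either direction. The lists were chosen with earlier results known, so this only describes the fit. WLS, the carrier that takes lipid-modified Wnt to the cell surface, rose from 2.14 ± 0.789 to 14.2 ± 0.894 CPM, mean and SD of 3 libraries (log2 fold change 2.73, SE 0.20, edgeR adjusted p 8.04e-07). WNT6 rose from 2.54 ± 0.0343 to 9.41 ± 1.39 CPM (log2 fold change 1.89, SE 0.14, edgeR adjusted p 9.81e-07). WNT5B, a ligand known for signalling outside the β-catenin branch, rose from 0.641 ± 0.187 to 1.63 ± 0.216 CPM (log2 fold change 1.34, SE 0.27, edgeR adjusted p 0.00159). The median of the list was -0.0024, and of the 9 genes not called all but WNT9A, also named after its value was seen, were below 0.

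Of 15 receptor genes tested, 3 were called higher and 3 lower, again 40%. ROR2, a receptor tyrosine kinase for Wnt, had 6, 2 and 4 counts in shCtrl and 50, 45 and 26 in shMORC2 (log2 fold change 3.28, SE 0.46, edgeR adjusted p 0.000117). FZD7, a Frizzled receptor, rose from 0.606 ± 0.117 to 2.34 ± 0.273 CPM (log2 fold change 1.94, SE 0.23, edgeR adjusted p 3.58e-05). FZD5, another Frizzled, fell from 19.996 ± 1.14 to 9.38 ± 0.509 CPM (log2 fold change -1.09, SE 0.10, edgeR adjusted p 2.98e-06).

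R-spondin genes were not tested, with RSPO1, RSPO2 and RSPO4 at 0 counts in all libraries. Their receptor gene LGR5, a marker of intestinal stem cells, fell from 4.73 ± 1.59 to 2.20 ± 0.886 CPM (log2 fold change -1.10, SE 0.28, edgeR adjusted p 0.00647), and LGR6 from 47.3 ± 5.98 to 35.7 ± 2.19 CPM (log2 fold change -0.41, SE 0.10, edgeR adjusted p 0.00498). LGR4 was at 12.002 ± 0.792 and 11.6 ± 0.358 CPM and was not called (edgeR adjusted p 0.700).

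The other secreted and surface antagonists had 5 genes called higher and 1 lower among 9 tested (66.7%), with a median log2 fold change of 0.53. APCDD1, a membrane protein that inhibits Wnt signalling, rose from 24.8 ± 2.06 to 87.4 ± 4.73 CPM (log2 fold change 1.82, SE 0.09, edgeR adjusted p 2.20e-08). SOSTDC1 rose from 2.94 ± 0.710 to 6.51 ± 0.635 CPM (log2 fold change 1.14, SE 0.17, edgeR adjusted p 0.000227). SFRP5, a secreted Frizzled-related protein that binds Wnt, rose from 28.4 ± 3.61 to 57.9 ± 3.996 CPM (log2 fold change 1.03, SE 0.10, edgeR adjusted p 5.19e-06). The gene called lower was DKK3, a relative of the Dickkopf genes, named after its value was seen and with overlapping libraries (log2 fold change -0.39, edgeR adjusted p 0.0210).

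In the Dishevelled and destruction complex list, 1 of 17 tested genes was called higher and 5 lower (35.3%). GSK3A, a kinase that marks β-catenin for degradation, fell (log2 fold change -0.69, SE 0.11, edgeR adjusted p 0.000403). AXIN1, the constitutive relative of AXIN2, fell from 129.6 ± 13.5 to 86.2 ± 5.55 CPM (log2 fold change -0.59, SE 0.09, edgeR adjusted p 0.000201), whereas AXIN2 had gone up. DVL1 fell (log2 fold change -0.42, SE 0.09, edgeR adjusted p 0.00319). APC stood at 25.3 ± 2.01 and 19.4 ± 4.93 CPM, with overlapping libraries, and its call (log2 fold change -0.38, SE 0.14, edgeR adjusted p 0.0468) held in 6 of 15 alternatives, whose adjusted p ran from 0.000200 to 0.275.

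In the nuclear list, 4 of 15 tested genes were called higher and 3 lower (46.7%). TLE1, a Groucho co-repressor that TCF/LEF proteins recruit, fell (log2 fold change -1.63, SE 0.25, edgeR adjusted p 0.000209), while its relative TLE3, which was more abundant, rose (log2 fold change 0.57, SE 0.08, edgeR adjusted p 9.22e-05). TCF7L1, which encodes TCF3 and mostly represses, rose from 5.87 ± 0.436 to 12.3 ± 1.56 CPM (log2 fold change 1.06, SE 0.12, edgeR adjusted p 2.73e-05). CTNNB1, the gene of β-catenin, was at 213.9 ± 9.75 and 242.0 ± 7.83 CPM and was not called (log2 fold change 0.18, SE 0.07, edgeR adjusted p 0.0647). With the replicate number as a block it was called (adjusted p 0.00807).

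Of 20 other Wnt target genes, 4 were called higher and 7 lower (55%), with a median log2 fold change of -0.05. FGF20 had 8, 2 and 2 counts in shCtrl and 59, 46 and 39 in shMORC2 (log2 fold change 3.53, SE 0.46, edgeR adjusted p 6.36e-05), and its log2 fold change was 4.46 without shCtrl replicate 1. FGF9, another fibroblast growth factor, was higher (log2 fold change 1.35, SE 0.28, edgeR adjusted p 0.00194). MMP7, a matrix-degrading protease, fell from 3.26 ± 0.322 to 1.12 ± 0.209 CPM (log2 fold change -1.54, SE 0.20, edgeR adjusted p 5.79e-05). MYC fell from 416.4 ± 40.7 to 212.8 ± 14.7 CPM (log2 fold change -0.97, SE 0.09, edgeR adjusted p 3.47e-06). Of the 24 genes named from these lists, 5 share exonic bases with another gene, and for WLS, LGR5 and DVL1 that gene lies on the other strand.

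**Figure D5:**
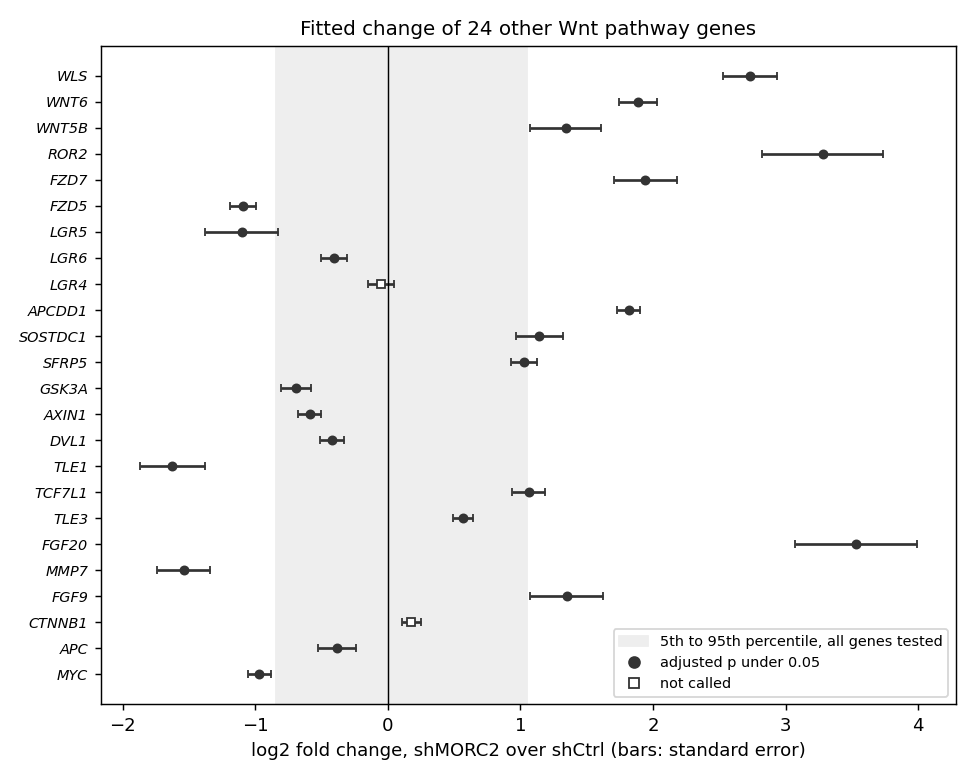
Fitted log2 fold change of shMORC2 over shCtrl (x axis) with its standard error for 24 other Wnt pathway genes (y axis), with filled points for an adjusted p under 0.05, open squares for genes not called, and a grey band from the 5th to the 95th percentile of all genes tested (-0.84 to 1.05). Genes lie on both sides of 0, from TLE1 at -1.63 to FGF20 at 3.53. Apart from LGR4, CTNNB1, APC and MYC, they were named for being called with the largest changes of their list. Their calls and their distance from 0 follow from that choice.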

How the data were processed

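The counts deposited by the authors are whole reads per gene, laid out as featureCounts writes them, and an RPKM table computed from the same counts. The submitters' processing notes name Trimmomatic 0.36, STAR 2.5.3a, Subread 1.5.1, edgeR 3.12.1 and GRCh38. Strand setting, annotation release and collapse of molecular identifiers were not given in the sources used here. An rMATS table deposited by the authors also holds p-values and differences of their own comparison, and only its gene names, event types and coordinates were read.

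The test was edgeR 4.0.16 under R 4.3.3, a quasi-likelihood model of group alone after filterByExpr and TMM, with Benjamini-Hochberg adjustment over 21005 genes. CPM used TMM-scaled library sizes, and the SE is the log2 fold change divided by the square root of F. Alternatives used DESeq2 1.42.0, limma 3.58.1 on log2(RPKM + 1) or log2(RPKM + 0.1) (mean RPKM of 1 or more), other scalings and filters, the replicate number as a block, and each library left out. On simulated counts with 193 changed genes among 20656 run, edgeR recovered 93.8% of them, with 14 false calls among 195. Far fewer genes were changed there than the 39.5% called here, so the share of false calls in these data is not known from it.

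The paper describes 3 independent replicate experiments per group. Whether these were separate cultures is stated neither there nor in the labels, and p-values then measure the spread between these libraries. All pairs of replicates differed by more than sampling noise. Deviations from the group means correlated between libraries of equal number (0.215, 0.111 and 0.102). With a prior of 1 in place of 2 counts the last of these was 0.0973. On these values alone the numbers were taken to pair the libraries in the block alternative. The main test left this pairing out.

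Members and lists were chosen with earlier results of these data known. The naming rule took all 10 members, MORC2, CTNNB1, APC, MYC, 3 genes with the highest correlation with LEF1, genes sharing exons with a member and, per list, the 3 called genes with the largest change and a mean of at least 20 counts, filled up by RPKM. A planned comparison of protein sequences was not run.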

Additional observations from a re-analysis of the deposited data

How the results depend on the processing

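MORC2 stayed lower in all 15 alternatives, with log2 fold changes between -0.74 and -0.55, each called. The count of genes called was 8301, and 5454 with limma on log2(RPKM + 1) without a filter, where 36613 genes were tested. With one library left out at a time it ran from 6268 to 8433, the members called from 5 to 7 and the other Wnt genes called from 37 to 49. With the replicate number as a block, 10287 genes, 8 members and 59 other Wnt genes were called. Among the members, MORC2 and the 24 genes named from the Wnt lists, the block added DKK1 and CTNNB1 and changed no other call. No member changed sign in any alternative. LEF1 and DKK4 moved with the pseudocount, to 1.603 and 2.13 for log2(RPKM + 1) and 3.48 and 4.77 for log2(RPKM + 0.1), a scale that understates changes of low genes. Without shCtrl replicate 2, whose count was 0, DKK4 stood at 5.99. With limma on log2(RPKM + 1) without a filter, AXIN2 (0.30), TCF7L2 (0.23), APC (-0.26, adjusted p 0.275) and LGR5 (-0.42, adjusted p 0.132) were not called, and the members called numbered 5. Depth limits DKK4, ROR2 and FGF20, whose shCtrl libraries held at most 8 counts.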

Other observations

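Among the epithelial markers, KRT20 and CDX2, genes of differentiated and intestinal epithelium, were higher in shMORC2, with log2 fold changes of 0.75 and 0.47 (edgeR adjusted p 0.00306 and 0.0158), although the CDX2 libraries of both groups overlapped. CEACAM5 was lower, at 515, 714 and 716 counts in shCtrl and 187, 418 and 319 in shMORC2 (log2 fold change -1.08, edgeR adjusted p 0.00265). KRT8, KRT18, KRT19, EPCAM, CDH1 and VIL1 were not called.

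Further genes of the Wnt lists were picked after their values were seen, outside the naming rule, which itself takes called genes with the largest changes. LRP6, a Wnt co-receptor, fell by 0.70 on the log2 scale (edgeR adjusted p 3.36e-05), while LRP5 was not called (-0.17, edgeR adjusted p 0.114). CD44 rose by 0.80 (edgeR adjusted p 0.000310), and SOX9 and CLDN1 fell by 0.46 and 0.77 (edgeR adjusted p 0.00904 and 4.51e-05). BCL9 rose by 0.43 and its relative BCL9L fell by 0.56 (edgeR adjusted p 0.000962 and 0.000359). SP5 and ASCL2, often read as targets of β-catenin, were not called (edgeR adjusted p 0.0557 and 0.298).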
